A study of Mus musculus with 27 samples.

Results

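The synaptic vesicle and SNARE genes described here were 63 of the 55416 genes in the read count table. They were taken by gene symbol, with earlier results of these data known, as the numbered members of the synaptotagmin (Syt), syntaxin (Stx), syntaxin-binding protein (Stxbp), Vamp, Snap, synapsin (Syn), SV2, complexin (Cplx) and Unc13 families. RNA of the whole brain of untreated mouse fetuses was sequenced at gestation days (d) 12, 15 and 17, with the plug as day 1. Each strain and day had 3 libraries. The paper does not state the sex of the fetuses. The strains were the inbred AKR/J and C57BL/6J and the congenic B6.Cg-Cav1tm1Mls/J (Cav1-null), a germline null of caveolin-1, and the dams were about 8 weeks old. The study sets C57BL/6J, a long-lived strain, against both others as short-lived strains. As in the study, early phase stands for d12 to d15 and late phase for d15 to d17.

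A synaptic vesicle releases its transmitter when the vesicle SNARE synaptobrevin (Vamp1 or Vamp2) zippers with the plasma membrane SNAREs syntaxin-1A (Stx1a) and SNAP-25 (Snap25) and the membranes fuse. Syntaxin-binding proteins act on syntaxins, Unc13 proteins prime the vesicle, complexins bind the assembled complex, and calcium-binding synaptotagmins trigger fusion when calcium enters. Synapsins tether vesicles in the reserve pool, and SV2 glycoproteins sit in the vesicle membrane. Other syntaxins, Vamps and Snaps serve fusion steps inside all cells or secretion from cells other than neurons.

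By role there were 5 core SNAREs of vesicle release, 6 syntaxin-binding proteins, 8 calcium-binding synaptotagmins, 9 other synaptotagmins, 4 complexins, 4 Unc13 genes, 3 synapsins, 3 SV2 genes, 9 other plasma membrane SNAREs and 11 SNAREs of internal membranes, with Vamp9 in no group. Levels are given as normalised CPM, the reads of a gene over the library total, after scaling with TMM factors. Of the 63 members, 58 had enough reads to be tested in all 16 comparisons. Syt10, with 1241 reads over the 27 libraries, was tested in 15, Cplx3 (390 reads) in 9, Vamp9 (170) in 4, Syt8 (172) in 2 and Cplx4 (29) in none. Because these are libraries of whole tissue, fewer cells that express a gene and less of its RNA per cell cannot be told apart.

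The libraries held 26363697 to 39759702 reads assigned to genes. The AKR/J libraries of d12 stood apart. The TMM factors of replicates 1 and 3 were 0.679 and 0.688, against 1.07 in replicate 2 and 0.897 to 1.12 in the other groups. Markers of erythroid cells took 3.56% to 13.6% of the reads of the 3 libraries and at most 1.93% in any other library. The summed level of 8 placenta and yolk sac markers, Ttr among them, reached 2332 CPM in 1 of them and at most 623 CPM elsewhere. These sums were not split by gene, so they are not shown to measure placenta or yolk sac RNA alone. Skeletal muscle markers summed to between 4.2 and 113 CPM and pituitary markers to between 10.1 and 112 CPM, and all 10 neuron markers had reads in every group. Cav1 itself had at most 0.509 CPM in Cav1-null libraries and at least 9.25 CPM in the others. The labels do not say whether the fetuses of a group came from separate litters, so the p-values measure only the spread between these libraries.

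**Figure D1:**
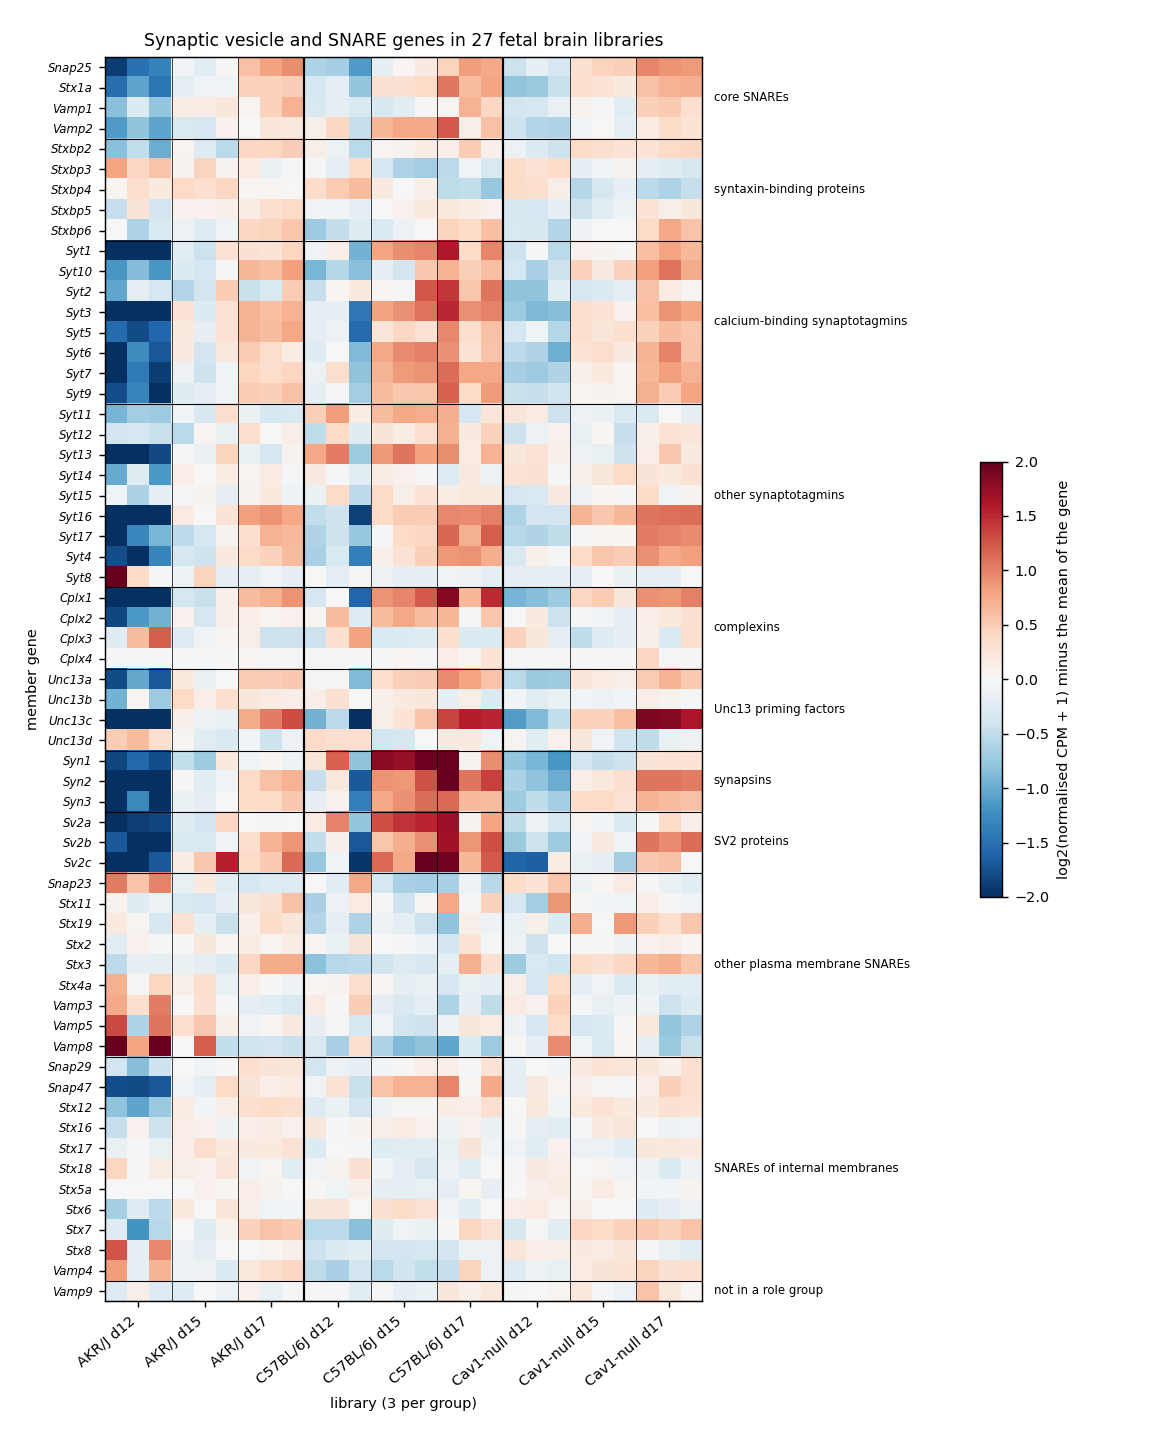
Level of 61 of the 63 members (rows, by role) in the 27 libraries (columns, 3 for each strain and day), drawn as log2(normalised CPM + 1) minus the mean of the gene, on a scale from -2 to 2. Of 27 genes of the release machinery, 24 have their lowest group mean in AKR/J on d12. Among these is Cplx4, which has no reads there or in some other groups, so that its lowest mean is shared. Cplx3 and Unc13d, also of the release machinery, have their highest group mean there. Snap23, Vamp3 and Vamp8 have their highest group mean there too, with replicate 2 below some libraries of other groups.

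The first comparison was between days within a strain. Each phase was tested on 6 libraries with edgeR's quasi-likelihood test, and a gene was called where its p, adjusted by Benjamini-Hochberg over all genes tested, was under 0.05. During the early phase in AKR/J, 31 of 61 tested members rose and 3 fell, where 14.8% of all genes rose and 14% fell. The median log2 fold change was 0.75 for the members and 0.02 for all genes. In its late phase 24 of 60 rose and 1 fell, against 11.6% and 10.4% of all genes, with medians of 0.28 and -0.01. Rises of members were thus more frequent than among all genes in both phases of AKR/J. With all 27 libraries in 1 model, where the groups share 1 estimate of the spread, 37 members rose and 7 fell early. In that model 11 of the 25 late calls in AKR/J were kept. Here and below, no share of all genes is given for that model or for fits with a library left out. Those counts of members can therefore not be set against all genes.

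In C57BL/6J, 14 of 59 members rose and 1 fell in the early phase, against 7.08% and 7.8% of all genes, with medians of 0.46 and -0.04. In the late phase 6 of 60 rose and 1 fell, against 7.46% and 5.58%, with medians of 0.23 and 0.03. In Cav1-null mice, 27 of 59 rose and 4 fell in the early phase, against 11.6% and 11.8%, with medians of 0.37 and -0.01. The late phase of Cav1-null mice had 32 rises and 1 fall among 60 members, against 14.5% and 12.8%, with medians of 0.31 and 0.00. The share of rises was above that of all genes in the early phase of C57BL/6J and in each phase of the Cav1-null strain, and near it in the late phase of C57BL/6J. The counts depended on the libraries in the model. With all 27 libraries in 1 model, the early calls in C57BL/6J went from 15 to 31, while in Cav1-null mice 16 of the 31 early calls were kept and 3 of the 33 late calls, those of Stxbp6, Syt17 and Unc13c.

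Over the 6 comparisons, 41 members were called only as rises, 6 only as falls, 1 in both directions and 15 in none. Of the 38 members that rose early in any strain, 9 were called in all 3 strains, among them Snap25, Stx1a, Syt3, Syt4, Cplx1 and Syn3. Of the 38 that rose late in any strain, 6 were called in all 3, namely Snap25, Stxbp6, Syt4, Syt16, Syt17 and Unc13c, of which Stxbp6, Syt17 and Unc13c stayed called in all 3 in the model of all libraries. The 6 that fell were Snap23, Vamp3, Vamp8, Stx8, Stxbp3 and Stxbp4, and none of them was called in all 3 strains within a phase. The members without a call were Cplx3, Cplx4, Stx2, Stx4a, Stx5a, Stx16, Stx18, Stx19, Syt8, Syt12, Syt15, Unc13b, Unc13d, Vamp5 and Vamp9. Of these, the model of all libraries called Unc13b higher early in AKR/J and Unc13d lower early in AKR/J and C57BL/6J.

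**Figure D2:**
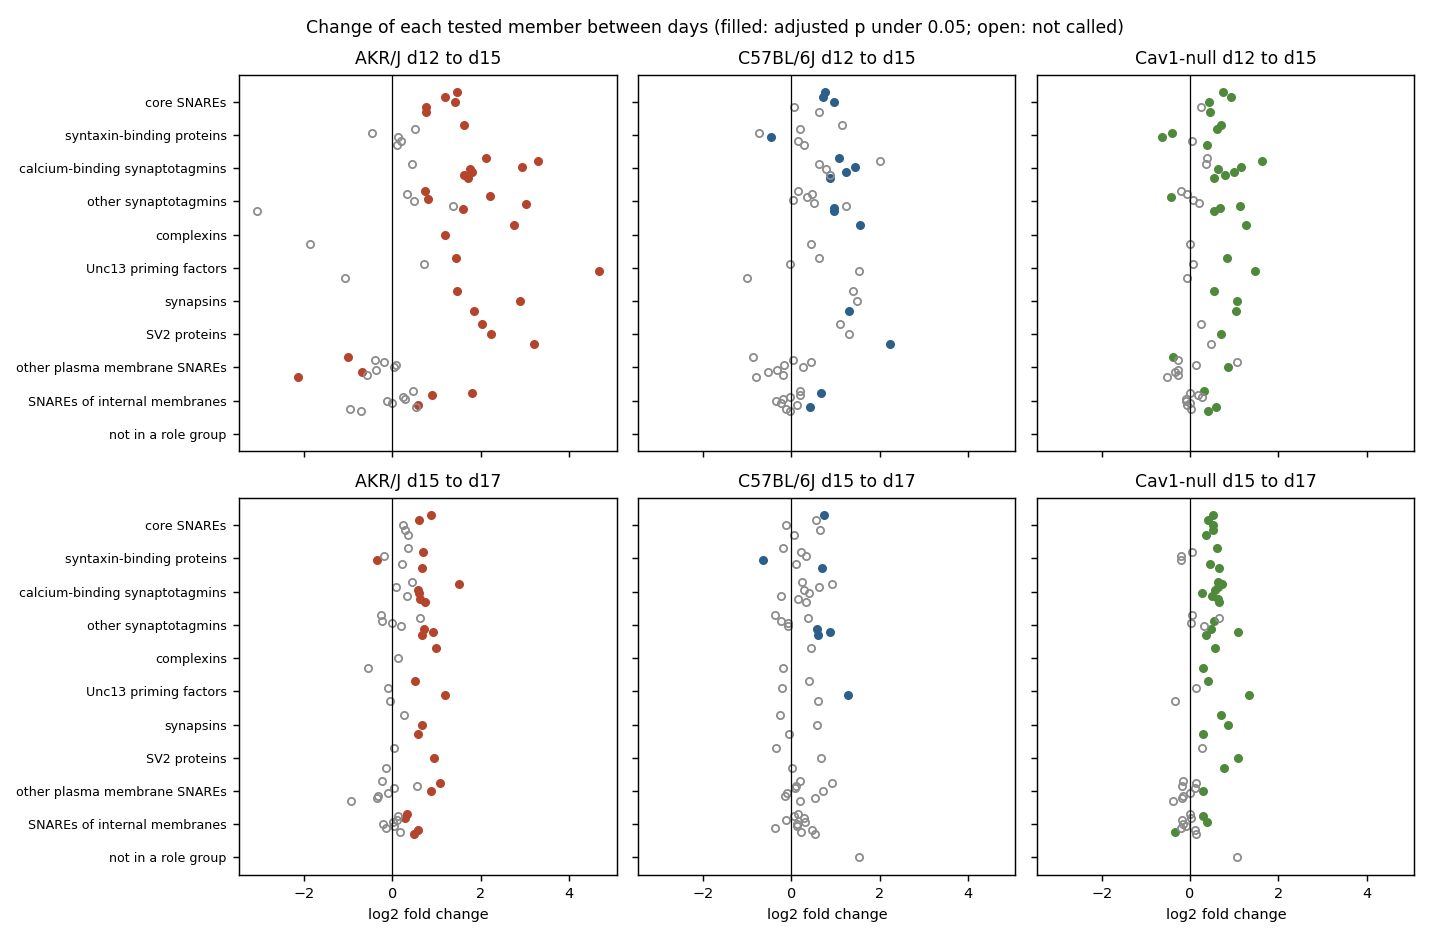
Log2 fold change (x axis, later day over earlier day) of each tested member in the 2 phases of the 3 strains, with the members grouped by role. Filled points passed an adjusted p of 0.05 and open points did not. Called core SNAREs, calcium-binding synaptotagmins, synapsins and SV2 genes all lie to the right of 0, and called falls lie among the syntaxin-binding proteins, Syt13 and the other SNAREs.

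Among the core SNAREs, Snap25 (ENSMUSG00000027273, chromosome 2, 136533580 to 136624362, plus strand of GRCm39) was called higher in both phases of all 3 strains. In AKR/J it had 33.4, 44.2 and 48.9 CPM on d12, 122, 109 and 129 CPM on d15 and 191, 223 and 243 CPM on d17. In C57BL/6J it had 82.1, 79.6 and 57.3, then 112, 130 and 143, then 173, 228 and 214 CPM. In Cav1-null mice it had 94.2, 110 and 99.9, then 156, 173 and 177, then 249, 237 and 230 CPM. No library of a day overlapped with one of the next day in any strain. The early log2 fold changes of Snap25 were 1.46 (SE 0.18, edgeR adjusted p = 0.00189) in AKR/J, 0.76 (SE 0.15, adjusted p = 0.0284) in C57BL/6J and 0.74 (SE 0.09, adjusted p = 0.00102) in the Cav1-null strain. The late ones were 0.88, 0.74 and 0.51 (adjusted p = 0.00147, 0.0257 and 0.000251), and that of Cav1-null mice was not called with all 27 libraries in 1 model (adjusted p = 0.0655).

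Stx1a, a plasma membrane syntaxin of release sites, went from 25 ± 4.74 to 59.4 ± 2.51 and 89.8 ± 1.12 CPM in AKR/J (mean ± SD, n = 3), from 48.2 ± 10.1 to 81.7 ± 3.01 and 115 ± 18.4 CPM in C57BL/6J, and from 40.8 ± 5.52 to 78 ± 3.61 and 103 ± 5.15 CPM in Cav1-null mice. Each step was called except the late one of C57BL/6J (0.56, adjusted p = 0.0506). Vamp2, the main synaptobrevin of the forebrain, rose early in AKR/J (0.77, adjusted p = 0.017) and in both phases of the Cav1-null strain (0.46 and 0.35), while C57BL/6J had 0.62 (adjusted p = 0.0639) and 0.06. Vamp1, the synaptobrevin of many brain stem and spinal cord neurons, was called early in AKR/J (0.77, adjusted p = 0.0275) and late in Cav1-null mice (0.51, adjusted p = 0.00217). Leaving out 1 of the 6 libraries ended the early AKR/J call of Vamp1 in 5 cases (adjusted p = 0.059 to 0.0953) and that of Vamp2 in 4 (adjusted p = 0.0549 to 0.0763). In the model of all libraries the late calls of Stx1a, Vamp1 and Vamp2 in Cav1-null mice were lost (adjusted p = 0.128, 0.121 and 0.417), as was the early one of Vamp2 there (adjusted p = 0.156), while Vamp2 was called early in C57BL/6J (adjusted p = 0.0306).

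Of the syntaxin-binding proteins, Stxbp6, or amisyn, which binds SNARE complexes, rose late in all 3 strains, by 0.67, 0.70 and 0.65. Stxbp4 (ENSMUSG00000020546, chromosome 11, 90354206 to 90529452, minus strand), a partner of syntaxin-4 in insulin-driven vesicle traffic, fell in both phases of C57BL/6J. It had 55.3, 61.5 and 66.8 CPM on d12, 48.8, 42.4 and 46.5 CPM on d15 and 29.9, 30.1 and 24.8 CPM on d17 there, with no overlap between days (-0.46, adjusted p = 0.0413, and -0.64, adjusted p = 0.0227). Stxbp4 also fell late in AKR/J (-0.35, adjusted p = 0.0122) and early in Cav1-null mice (-0.63, adjusted p = 0.00805). Stxbp3, which acts in many tissues outside the nervous system, fell early in Cav1-null mice (-0.42, adjusted p = 0.0349), a call that was lost with library sizes alone (-0.40, adjusted p = 0.0515) and with all 27 libraries in 1 model (adjusted p = 0.0978). That of Stxbp4 late in AKR/J was lost in the latter too (adjusted p = 0.0518).

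Of the 8 calcium-binding synaptotagmins, 7 rose early in AKR/J, against 4 in C57BL/6J and 6 in the Cav1-null strain, and 5, 0 and 8 rose late. None fell in any phase. With all 27 libraries in 1 model, the early rises were 7, 7 and 4 (Syt3, Syt6, Syt7 and Syt10 in Cav1-null mice), and late 1 rose in AKR/J (Syt9) and 0 in Cav1-null mice. Syt1, the calcium sensor of fast release, went from 21.8, 24.4 and 21.8 CPM on d12 to 93, 80.8 and 133 CPM on d15 in AKR/J (2.13, SE 0.21, adjusted p = 0.00104). In C57BL/6J it went from 103, 119 and 56 to 188, 207 and 216 CPM (1.09, SE 0.24, adjusted p = 0.0321). Both steps left no overlap between d12 and d15. In Cav1-null mice Syt1 had 81, 107 and 74.1 CPM on d12 and 115, 114 and 111 CPM on d15, which did not pass (0.38, adjusted p = 0.0582), and 166, 189 and 172 CPM on d17, which did (0.63, adjusted p = 3.74e-05). Syt3 rose early in every strain, by 2.93, 1.45 and 1.15. Syt10, the lowest of the group, had at most 0.505 CPM in the AKR/J and C57BL/6J libraries of d12 and 2.13 to 3.76 CPM in the libraries of d17 of all strains. It was called in both phases of AKR/J (3.31, SE 1.01, adjusted p = 0.041, and 1.51) and of Cav1-null mice (1.63 and 0.73). The early value of Syt10 in AKR/J was 7.68 without d12 replicate 2, and its call was lost without any other of the 6 libraries (adjusted p = 0.0797 to 0.141) and with library sizes alone (3.59, adjusted p = 0.0522).

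Among the other synaptotagmins, Syt4, a protein of dense-core vesicles, was called higher in all 6 comparisons. Its log2 fold changes were 1.60 and 0.68 in AKR/J, 0.97 and 0.60 in C57BL/6J and 0.55 and 0.36 in the Cav1-null strain. With the trend of each library with GC content and exon length removed, an alternative chosen after seeing the data, the late calls of Syt4 in AKR/J (0.50, adjusted p = 0.0672) and C57BL/6J (0.29, adjusted p = 0.379) were lost. With all 27 libraries in 1 model, the late calls of Syt4 in AKR/J and C57BL/6J (adjusted p = 0.0773 and 0.11) and both calls in Cav1-null mice (adjusted p = 0.132 and 0.481) were lost. Syt16 rose in AKR/J from 6.29 ± 1.26 to 52.7 ± 4.94 and 85.6 ± 3.59 CPM, and its early change was 3.02 (SE 0.21, adjusted p = 0.000487). Syt17 was called in every phase but the early one of AKR/J (1.38, adjusted p = 0.0568), with log2 fold changes of 0.67 to 1.08, and its early call in Cav1-null mice was lost in that model (adjusted p = 0.104). Syt13, which binds no calcium, was the member with calls in both directions. It rose early in AKR/J from 13.7 ± 2.82 to 65.9 ± 15.2 CPM (2.22, adjusted p = 0.00107), fell early in Cav1-null mice from 70.2 ± 4.36 to 51.9 ± 5.92 CPM (-0.43, adjusted p = 0.0166) and rose late in them to 74.5 ± 12 CPM (0.53, adjusted p = 0.00359), and both calls in Cav1-null mice were lost in the model of all libraries (adjusted p = 0.348 and 0.35).

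The complexin Cplx1 rose from 3.44 ± 1.39 to 23.7 ± 5.22 and 46.8 ± 4.82 CPM in AKR/J. Its early log2 fold changes were 2.75, 1.55 and 1.27 in AKR/J, C57BL/6J and the Cav1-null strain (adjusted p = 0.00164, 0.0368 and 0.000415). Cplx2 was called early in AKR/J (1.19, adjusted p = 0.0107) and late in Cav1-null mice (0.30, adjusted p = 0.00911). Unc13a, encoding the priming factor Munc13-1, rose in both phases of AKR/J (1.45 and 0.51) and of Cav1-null mice (0.84 and 0.41), with 0.63 (adjusted p = 0.0868) and 0.41 (adjusted p = 0.109) in C57BL/6J. With all 27 libraries in 1 model, the late calls of Cplx2 (adjusted p = 0.531) and Unc13a (adjusted p = 0.277) in Cav1-null mice were lost, as was the late one of Unc13a in AKR/J (adjusted p = 0.106), and Unc13a was called early in C57BL/6J (adjusted p = 0.0171).

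Unc13c (ENSMUSG00000062151, chromosome 9, 73386701 to 73876490, minus strand), a priming factor best known from the cerebellum, had the highest early log2 fold change of the tested members in AKR/J. It had 0.701, 0.329 and 0 CPM on d12, 10.7, 9.02 and 8.89 CPM on d15 and 17.3, 21.2 and 26 CPM on d17 in AKR/J, where 3 reads over the d12 libraries would be 0.0324 CPM. In C57BL/6J it had 4.67, 6.56 and 1.65, then 10.8, 12.2 and 15.2, then 27, 31.4 and 30.5 CPM. In Cav1-null mice it had 4.03, 4.9 and 6.78, then 14.1, 14.1 and 15.6, then 38.9, 38.2 and 32.9 CPM. Libraries of successive days did not overlap in any strain. The early log2 fold changes were 4.69 (SE 0.77, adjusted p = 0.00451), 1.53 (adjusted p = 0.0539) and 1.47 (SE 0.21, adjusted p = 0.00208) in AKR/J, C57BL/6J and the Cav1-null strain, and the late ones 1.19, 1.28 and 1.33 (adjusted p = 0.00273, 0.00654 and 1.49e-06). The early value of Unc13c in AKR/J was 5.60 without d12 replicate 1, and its early change in C57BL/6J was called with all 27 libraries in 1 model (adjusted p = 0.00532).

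All 3 synapsins rose early in AKR/J and in Cav1-null mice, while in C57BL/6J only Syn3 passed (1.31, adjusted p = 0.0461). Syn2 rose from 4.05 ± 1.6 to 31 ± 2.59 CPM in AKR/J (2.90, adjusted p = 0.00127) and from 18.4 ± 2.34 to 38.6 ± 2.5 CPM in Cav1-null mice (1.07, adjusted p = 0.000636). In C57BL/6J it had 23.8 ± 14.3 and 68 ± 11.5 CPM (1.48, SE 0.42, adjusted p = 0.0534). The SV2 genes Sv2a, Sv2b and Sv2c rose early in AKR/J by 2.03, 2.23 and 3.20. In C57BL/6J the early values were 1.10 (adjusted p = 0.0827), 1.32 (adjusted p = 0.0738) and 2.23 (adjusted p = 0.0373). In Cav1-null mice they were 0.24, 0.70 and 0.47, of which that of Sv2b was called (adjusted p = 0.0144). The early calls of Syn1 and Sv2b in Cav1-null mice were lost with all 27 libraries in 1 model (adjusted p = 0.449 and 0.17). In that model all 3 synapsins and all 3 SV2 genes were called early in C57BL/6J, with adjusted p = 0.0215 and 0.00194 for Syn1 and Syn2 and 0.0267 and 0.00608 for Sv2a and Sv2b.

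Of the 9 other plasma membrane SNAREs, 3 fell and 0 rose early in AKR/J. Vamp8 (ENSMUSG00000050732, chromosome 6, 72359012 to 72368482, minus strand), a SNARE of late endosomes and of secretion in gland and blood cells, had 74.2, 14.1 and 48.6 CPM on d12 and 7.7, 19.1 and 5.15 CPM on d15. The ranges overlap, since replicate 2 of d15 lies above replicate 2 of d12. Its log2 fold change was -2.14 (SE 0.65, adjusted p = 0.0388). It was -2.85 without d15 replicate 2, and the call was lost without d12 replicate 1 or 3 or d15 replicate 1 or 3 (adjusted p = 0.0908 to 0.128). Snap23, the widely expressed relative of Snap25, was at -1.0 (adjusted p = 0.00764) and Vamp3, a SNARE of recycling endosomes, at -0.69 (adjusted p = 0.0387), a call that was lost in 5 of 6 cases with 1 library left out (adjusted p = 0.0585 to 0.152). With library sizes alone in place of TMM factors none of the 3 was called (Vamp8 -1.51, Snap23 -0.50 and Vamp3 -0.18), and the median of all genes moved from 0.02 to 0.46. In the same comparison 9 of 10 erythroid markers fell, from summed levels of 33232 to 197975 CPM to levels of 2012 to 3070 CPM, as did 6 of 7 tested placenta and yolk sac markers, and their part in these falls was not tested. Snap23 also fell early in Cav1-null mice (-0.38, adjusted p = 0.0464, and 0.233 with all 27 libraries in 1 model), where 4 erythroid markers rose and 4 fell.

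Stx3, a syntaxin of polarised membranes and ribbon synapses, rose late in AKR/J (0.88) and in both phases of the Cav1-null strain (0.85 and 0.30). Stx11, a syntaxin of immune cells, rose late in AKR/J at a low level, from 1.08 ± 0.123 to 2.27 ± 0.44 CPM (1.09, adjusted p = 0.0243). Of the 11 SNAREs of internal membranes, 3 rose early in AKR/J, against 2 in C57BL/6J and 3 in the Cav1-null strain, with medians of 0.30, -0.02 and 0.03. Fitted with all 27 libraries, 6, 2 and 1 of them rose, and Stx8 and Vamp4 fell in AKR/J. Snap47, a relative of Snap25, rose early by 1.80 in AKR/J and 0.67 in C57BL/6J and was at 0.00 in the Cav1-null strain. Stx7, a syntaxin of late endosomes, rose early in C57BL/6J (0.43) and Cav1-null mice (0.59) and late in AKR/J (0.59). Stx8, which pairs with Stx7, fell late in Cav1-null mice (-0.34, adjusted p = 0.0143). The late calls of Stx3 and Stx8 in Cav1-null mice (adjusted p = 0.379 and 0.425) and of Stx11 in AKR/J (adjusted p = 0.171) were lost when all 27 libraries were fitted together.

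Per kilobase of exon, Syt4, Vamp2 and Cplx2 had the highest mean levels of the members on d17 in each strain. These were 49.3, 48.2 and 38 CPM per kb in AKR/J, 62.7, 71.7 and 47.7 CPM per kb in C57BL/6J and 62.5, 52.4 and 41.4 CPM per kb in the Cav1-null strain. On d12 the order in AKR/J began with Vamp2 (21.8 CPM per kb), Stx16 (21.6), Stx7 (16.9) and Vamp8 (15.5), so that SNAREs of internal membranes and Vamp8 stood beside synaptobrevin. In C57BL/6J it began with Vamp2 (45.6), Cplx2 (40.3) and Syt11 (36.1), and in the Cav1-null strain with Cplx2 (34.1), Syt4 (33.4) and Vamp2 (29.9).

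**Figure D3:**
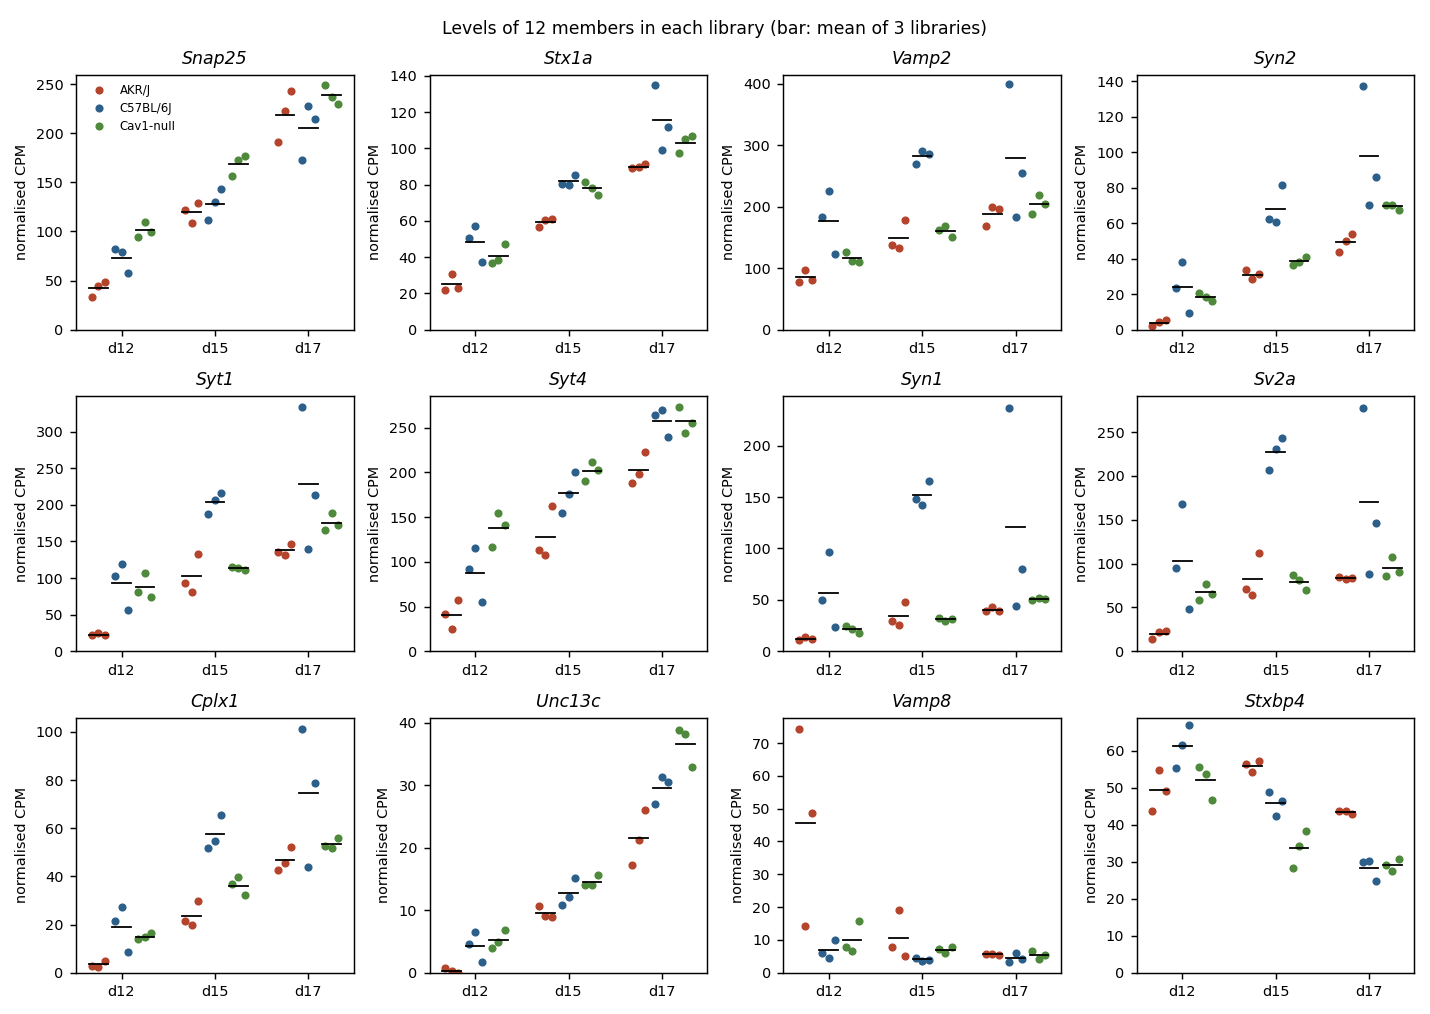
Normalised CPM (y axis) of 12 members in every library by day (x axis), with 1 point per library, the strains in colour and a bar at the mean of each group of 3. Snap25 and Unc13c climb from day to day in every strain, and Syn1 and Sv2a lie higher in C57BL/6J than in the other strains on d15 and spread widely between the C57BL/6J libraries of d12 and d17.

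Of 49 presynaptic partners outside the symbol rule (vesicle transporters and active zone genes among them), 48 were found. Of these, 41, 26 and 33 rose early in AKR/J, C57BL/6J and the Cav1-null strain and 0 fell, and 24, 7 and 37 rose late with 1 fall each. Of 18 trafficking SNAREs and SM proteins with other names, at most 6 rose and at most 2 fell in any phase. Of 10 neuron markers, 6, 2 and 3 rose early and 0 fell, with medians of 0.99, 0.51 and 0.12, where the members had 0.75, 0.46 and 0.37. Late, 2, 2 and 4 neuron markers rose and 1 fell in Cav1-null mice, with medians of 0.10, -0.21 and 0.10 against 0.28, 0.23 and 0.31 for the members. Of 10 neural progenitor markers, 5, 5 and 7 fell early (medians -0.78, -0.56 and -1.22), and 1 rose in Cav1-null mice. Late, 9, 6 and 7 of them fell (medians -1.17, -1.28 and -0.59), and 1 each rose in AKR/J and C57BL/6J. Of 10 erythroid markers, 0, 0 and 4 rose and 9, 3 and 4 fell early, and 5, 6 and 0 rose and 3, 3 and 6 fell late. The part of these cell types in the changes of the members was not tested.

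The counts of called members in C57BL/6J rested on single libraries. Whether this was particular to the members cannot be told, as the share of all genes in the left-out fits is not given. In its early phase 0 members were called when d12 replicate 1 or any single library of d15 was left out, 31 without d12 replicate 2 and 26 without d12 replicate 3. With none left out 33 members had an unadjusted p under 0.05, and DESeq2 called 25 rises and 5 falls. In the late phase of C57BL/6J, 18 members were called without d17 replicate 1, 12 without d17 replicate 2, 0 without d17 replicate 3 and 1 without each of the d15 replicates. Syn1 had 49.5, 96.6 and 23.5 CPM in the C57BL/6J libraries of d12 and 237, 44.2 and 80.5 CPM in those of d17. Of the named C57BL/6J calls, those of Snap25, Stx1a, Stxbp4, Syt1, Syt3, Syt4, Cplx1 and Sv2c in the early phase and of Snap25, Stxbp4, Syt4 and Syt17 in the late phase were each lost in 4 of 6 cases with 1 library left out (adjusted p = 0.0585 to 0.176), and the late one of Unc13c without d17 replicate 3 (adjusted p = 0.0522).

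In AKR/J the late count fell from 25 to 16 without d17 replicate 3. With 1 library left out, the late AKR/J calls of Stx11 and Syt4 were lost in 3 of 6 cases each (adjusted p = 0.0669 to 0.109 and adjusted p = 0.0538 to 0.0724), and that of Stxbp4 without d17 replicate 2 or 3 (adjusted p = 0.0513 and 0.0661). In Cav1-null mice the early calls were lost in 5 cases for Stxbp3 (adjusted p = 0.0511 to 0.137) and in 3 for Syt13 (adjusted p = 0.0523 to 0.0565). That of Sv2b was lost without d12 replicate 1 or d15 replicate 2 (adjusted p = 0.0568 and 0.0847), that of Syn1 without d15 replicate 1 (adjusted p = 0.0619) and that of Syt4 without d15 replicate 2 (adjusted p = 0.0506). The late calls of Cplx2 and Stx8 there were lost without d17 replicate 3 (adjusted p = 0.0536 and adjusted p = 0.0645).

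An interaction term over 12 libraries tested whether strains differed in the step from day to day. No member was called in any of the 4 tests with edgeR's quasi-likelihood test. For AKR/J against C57BL/6J, 0.0711% of all genes were called in the early phase and 0.00468% in the late phase, and for Cav1-null mice 0.00472% and 0.252%. At an unadjusted p under 0.05 there were 20, 6, 5 and 10 members, and DESeq2 called 5, 0, 0 and 2. The early term of AKR/J was positive for 44 of 61 members, with a median of 0.40 against 0.03 for all genes, and called 13 members without AKR/J d12 replicate 2 and 7 without C57BL/6J d12 replicate 3. Without C57BL/6J d17 replicate 1 the late terms called 4 members for AKR/J and 23 for Cav1-null mice, and the early term of Cav1-null mice called 4 when C57BL/6J d12 replicate 2 was left out. In the model of all 27 libraries the early term of AKR/J called 8 members, all positive, and the other 3 terms called 0. The shares of all genes above belong to the fits of 12 libraries, and those of the other fits are not given. A difference between strains in the change between days was thus called or not depending on the model and the libraries.

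The second comparison was between strains on each day. Both short-lived strains were set against the same C57BL/6J libraries, so their values are given side by side and their likeness is no result. On d12, AKR/J had 3 members higher and 22 lower than C57BL/6J among 59 tested, where 14.5% of all genes were higher and 14.1% lower, with medians of -0.49 and 0.02. With library sizes alone the split was 1 higher and 27 lower, and the median of all genes was -0.38. For Cav1-null mice on d12, edgeR called 0 of 60 members, with 0% of all genes higher and 0% lower. There 9 members had an unadjusted p under 0.05, DESeq2 called 4, and 8 were called without C57BL/6J d12 replicate 3.

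In AKR/J on d12, Unc13c had the lowest log2 fold change, -3.44 (SE 0.91, adjusted p = 0.0257), with the values given above. It was -4.37 without AKR/J d12 replicate 1, and the call was lost without AKR/J d12 replicate 2 or 3 or C57BL/6J d12 replicate 1 or 2 (adjusted p = 0.0506 to 0.107). Syt13 was at -2.54 (SE 0.42, adjusted p = 0.0115), Syn2 at -2.41, Cplx1 at -2.34 and Sv2a at -2.26. The 3 higher members were Vamp8 (2.87, adjusted p = 0.0125), Stx8 (1.28, adjusted p = 0.0267) and Vamp4 (1.17, adjusted p = 0.018). Vamp4 and Stx8 belong to the 11 SNAREs of internal membranes, of which 2 were higher, 1 lower (Snap47, -1.59) and 8 not called, and Vamp8 to the other plasma membrane SNAREs. With library sizes alone Stx8 was at 0.75 (adjusted p = 0.0885), and with 1 library left out its call was lost in 4 of 6 cases (adjusted p = 0.088 to 0.104). Those of Syt13, Sv2a and Vamp8 were lost without C57BL/6J d12 replicate 2 (adjusted p = 0.0622, adjusted p = 0.0622 and adjusted p = 0.0662), and those of Syn2 and Cplx1 without it or AKR/J d12 replicate 1 (adjusted p = 0.0532 and 0.0686, and adjusted p = 0.0519 and 0.0637). In this comparison 9 of 10 erythroid markers were higher and 1 lower, and 5 of 7 placenta and yolk sac markers were higher. Of 10 neuron markers, 4 were lower, and the part of these cell types was not tested. The count fell from 25 to 0 without C57BL/6J d12 replicate 2, to 7 and 11 without AKR/J d12 replicates 1 and 3, and to 12 without C57BL/6J d12 replicate 1. It rose to 44 with all 27 libraries in 1 model, with 36 lower and 8 higher. There Snap23, Vamp3, Vamp5, Stxbp3 and Syt8 joined the 3 higher members. How many of all genes these other fits called is not given, so the shifts are not shown to be particular to the members.

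On d15, AKR/J had 12 members higher and 21 lower among 59, against 18.8% and 22.3% of all genes, with medians of -0.26 and 0.06. Cav1-null mice had 17 higher and 25 lower among 59, against 26.8% and 31.8%, with medians of -0.03 and 0.03. In these fits of 6 libraries the share of lower members was above that of all genes in both strains. With library sizes alone the splits were 19 higher and 18 lower in AKR/J and 26 higher and 19 lower in Cav1-null mice, where the medians of all genes were 0.23 and 0.21. Without C57BL/6J d15 replicate 2 the AKR/J count was 20, with 3 higher and 17 lower. With all 27 libraries in 1 model AKR/J had 3 higher and 19 lower and Cav1-null mice 9 higher and 18 lower. For these other settings the shares of all genes are not given, so the statement on shares holds for the fits of 6 libraries with TMM factors alone.

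Syn1 (ENSMUSG00000037217, chromosome X, 20726750 to 20787397, minus strand), a synapsin, had the lowest log2 fold change in both strains on d15. It had 148, 142 and 166 CPM in C57BL/6J, 29.6, 25.1 and 48.2 CPM in AKR/J and 32.4, 29.9 and 31.1 CPM in Cav1-null mice. The C57BL/6J libraries lay above all others of that day without overlap. The log2 fold change was -2.09 (SE 0.21, adjusted p = 0.00041) in AKR/J and -2.25 (SE 0.07, adjusted p = 1.5e-08) in Cav1-null mice. On d17 the AKR/J libraries (39.4, 43 and 39 CPM) lay below the 3 C57BL/6J libraries, and the Cav1-null libraries (50.2, 51.6 and 50.7 CPM) lay between the lowest and the next of them.

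The Syn1 promoter is shown because Syn1 had this difference and because it holds the left part of RE1, the element bound by the neuronal gene repressor REST. Promoters around each transcription start were taken from RefSeq on GRCm38.p6, and 49 members had 64 of 32851 promoters. The letters TTCAGCACC, searched on both strands, were found in 0.371% of all promoters and in 2 of the 64, those of Syn1 and Unc13a. The promoter lies at chrX:20920869-20921168 on the minus strand, and capitals mark the motif.
Syn1 promoter: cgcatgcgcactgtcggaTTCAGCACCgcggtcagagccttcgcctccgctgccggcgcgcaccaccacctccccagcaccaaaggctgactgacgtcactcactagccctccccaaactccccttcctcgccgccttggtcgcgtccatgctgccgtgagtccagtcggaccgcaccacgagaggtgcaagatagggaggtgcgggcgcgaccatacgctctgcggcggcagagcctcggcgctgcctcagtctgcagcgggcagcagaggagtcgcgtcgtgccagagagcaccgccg
The CRE motif TGACGTCA was found in 1.79% of all promoters and in 2 of the 64, those of Syn1 and Stxbp3, and TATAAA in 13.6% and in 4, those of Stx2, Stx3 and Sv2b. A match is a description of the letters and was not tested as a binding site.

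Sv2a had 207, 231 and 243 CPM in C57BL/6J on d15, against 70.7, 64.3 and 112 CPM in AKR/J (-1.40, SE 0.19, adjusted p = 0.00111) and 87, 81 and 69.4 CPM in Cav1-null mice (-1.48, SE 0.09, adjusted p = 2.8e-07). All C57BL/6J libraries of that day lay above those of the other strains for Sv2a. Vamp2 was at -0.85 in AKR/J and -0.77 in Cav1-null mice, Syt1 at -0.93 and -0.80, and Cplx1 at -1.21 and -0.62, the latter not called with all 27 libraries in 1 model (adjusted p = 0.0869). Sv2c was lower in Cav1-null mice (-1.76, adjusted p = 0.000492), with 15.7, 14.9 and 10.2 CPM against 39, 29.9 and 73.1 CPM. Snap25, the partner of Vamp2 in the core complex, was higher in Cav1-null mice (0.44, adjusted p = 0.00104) and not called in AKR/J (-0.03).

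Of the other plasma membrane SNAREs on d15, 4 were higher in AKR/J and 5 in Cav1-null mice, and 0 were lower. In the model of all 27 libraries 1 was higher in AKR/J (Vamp8) and 3 in Cav1-null mice (Snap23, Stx3 and Stx19). Vamp8 had 7.7, 19.1 and 5.15 CPM in AKR/J, 7.19, 6.07 and 7.93 CPM in Cav1-null mice and 4.65, 3.72 and 3.98 CPM in C57BL/6J. It was at 1.46 in AKR/J (adjusted p = 0.0428), a value that fell to 0.71 without AKR/J d15 replicate 2 (adjusted p = 0.0524). Leaving out a library ended this call in 5 of 6 cases (adjusted p = 0.0524 to 0.123). In Cav1-null mice Vamp8 was at 0.82 (adjusted p = 0.0026), which was not called with all 27 libraries in 1 model (adjusted p = 0.209). Stx19 was at 1.41 in Cav1-null mice (SE 0.37, adjusted p = 0.00756), with 2.76, 1.26 and 3.15 CPM against 1.11, 0.974 and 0.678 CPM. The Cav1-null libraries lay above the C57BL/6J libraries in both genes. Stxbp3 was at 0.87 in AKR/J (adjusted p = 0.00597) and 0.57 in Cav1-null mice (adjusted p = 0.00499). Of the neuron markers, 4 of 10 were lower in AKR/J, and 6 were lower and 2 higher in Cav1-null mice. Of the neural progenitor markers, 3 of 10 were lower and 2 higher in AKR/J, and 9 were lower and 1 higher in Cav1-null mice (medians 0.02 and -0.80). For the 10 erythroid markers, the AKR/J split was 7 higher and 1 lower, and the Cav1-null split was 6 higher and 2 lower. Of the presynaptic partners, 1 was higher and 37 lower in AKR/J and 6 were higher and 33 lower in Cav1-null mice. The part of neurons, progenitors and blood cells in the differences of the members was not tested.

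GC content moved with the strain differences. On d15 its Spearman correlation with the log2 fold change was -0.39 for AKR/J and -0.46 for Cav1-null mice across 19582 and 19707 genes, and -0.42 and -0.49 across the 59 members. Genes share their libraries and are not independent, so these values are descriptions. The lower members had a median GC content of 52.6% in AKR/J and 51.4% in Cav1-null mice, and the higher ones 45.7% and 43.7%. With the trend with GC content and exon length removed, 10 members were higher and 20 lower in AKR/J, while the Cav1-null strain had 12 and 25. Syn1 was then at -1.95 and -2.08, and Sv2a at -1.11 and -1.13. The calls of Snap25 (0.12, adjusted p = 0.208) and Stx19 (0.47, adjusted p = 0.306) in Cav1-null mice were lost, as was that of Vamp8 in AKR/J (1.36, adjusted p = 0.069). In Cav1-null mice Unc13a went from -0.22 to 0.33 (adjusted p = 0.000268) and Syt4 from 0.23 to -0.53 (adjusted p = 0.000407), both called in the other direction. With the trend kept, leaving out 1 library ended the call of Unc13a in 3 of 6 cases and that of Syt4 in 4 (adjusted p = 0.0642 to 0.0813 and 0.0721 to 0.14).

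**Figure D4:**
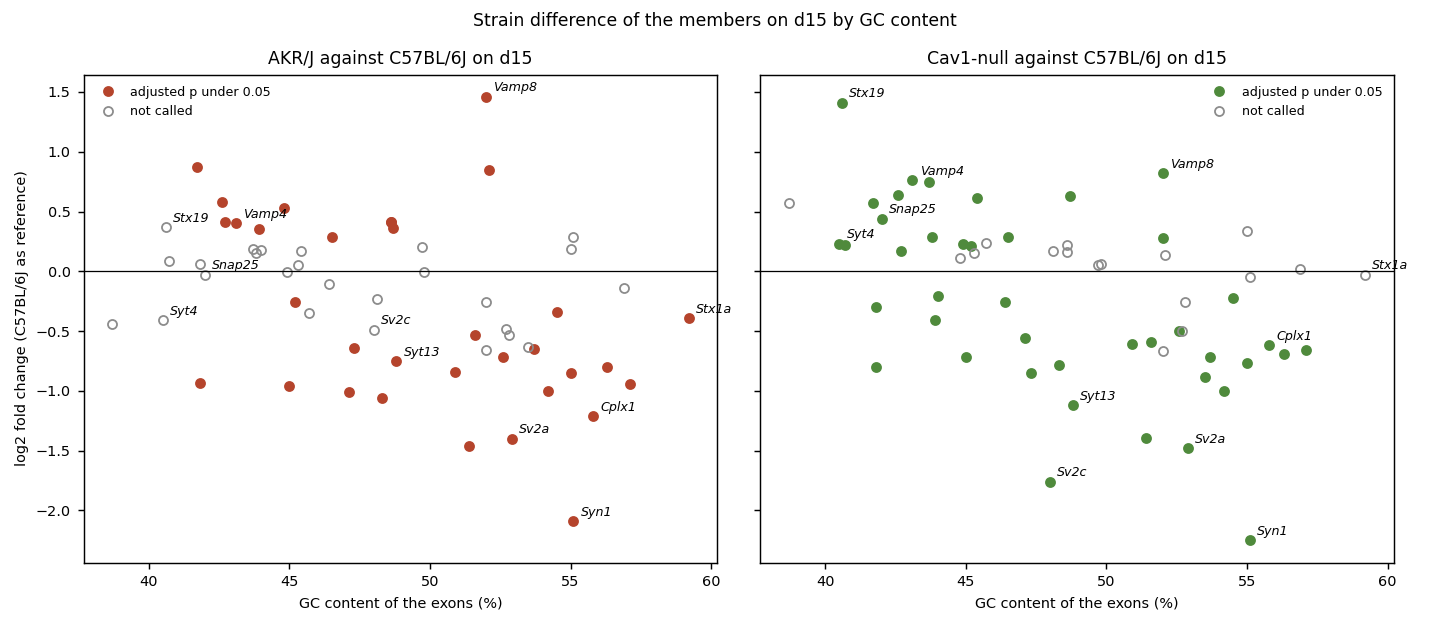
Log2 fold change against C57BL/6J on d15 (y axis) by GC content of the exons in percent (x axis) for the 59 tested members, with a panel for each strain. Filled points passed an adjusted p of 0.05. Syn1 lies lowest in both panels, and called points below 0 lie mostly at higher GC content than called points above 0.

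On d17 no member was called in either strain with edgeR's quasi-likelihood test, where 0.381% of all genes were higher and 0.361% lower in AKR/J, while the Cav1-null strain had 0.00491% and 0.0442%. Of the members, 18 of 59 and 6 of 61 had an unadjusted p under 0.05, and DESeq2 called 5 and 0. Without C57BL/6J d17 replicate 2, 4 members were higher and 20 lower in AKR/J and 3 higher and 11 lower in Cav1-null mice. Shares of all genes are not given for these left-out fits, so their counts of members cannot be set against all genes. The C57BL/6J libraries of d17 differed among themselves in these genes, with Sv2a at 278, 88.5 and 146 CPM. Replicate 1 was the highest and replicate 2 the lowest, as in Syn1.

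Exon choice was read from the deposited table of reads that span splice junctions, which lists 202 junctions of 47 members among 55670. At each splice site with several junctions, the share of the junction with most reads was compared between the 9 libraries of d12 and the 9 of d17 in a two-sided exact permutation test. With at least 20 reads per site in every library, 24.6% of 2211 sites were called. The 1 member site among them, in Stx18, a syntaxin of the endoplasmic reticulum, was not called (-2.82 percentage points, p = 0.332, adjusted p = 0.542, exact permutation test). Snap25, known for a developmental switch between a pair of alternative exons, had 1 junction in the table, so that this choice was not analysed here.

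With at least 10 reads, 22% of 3514 sites and 4 of 10 member sites were called, in Unc13b, Stx3 and Stxbp2. Unc13b encodes the priming factor Munc13-2. Both of its sites lie at the ends of a junction that skips an exon of 23 bases at chr4:43227925-43227947 of GRCm39, plus strand, which is coding in the annotation. The exon is shown in capitals between 20 bases of intron on each side.
Unc13b exon: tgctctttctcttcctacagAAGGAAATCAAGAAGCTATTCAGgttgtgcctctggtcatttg
The exon was included in 0%, 2.63% and 0% of the reads on d12, 31.5%, 28.4% and 10.2% on d15 and 48.2%, 59.5% and 58.6% on d17 in AKR/J. In C57BL/6J inclusion was 14.3%, 10.2% and 0%, then 12.5%, 30.8% and 19.2%, then 33.3%, 54.2% and 48.1%. In Cav1-null mice it was 18.7%, 12.9% and 7.69%, then 48%, 26.5% and 38.7%, then 43.3%, 45.5% and 40%. Every library of d17 lay above every library of d12. The share of the skipping junction on d17 minus that on d12 was -35.32 percentage points at its first site and -44.32 at its second, each with p = 4.11e-05, the smallest that these permutations can give, and an adjusted p of 0.000821 (exact permutation test). Inclusion is the mean of the reads into and out of the exon, divided by that mean plus the skipping reads. At the site behind the exon a library had 11 to 58 reads, and the exact 95% (Clopper-Pearson) intervals of its share were 6.72 to 38.1 percentage points wide and cover counting error only. The gene counts of Unc13b passed in no phase, with an early log2 fold change of 0.72 in AKR/J (adjusted p = 0.0802) that was called with all 27 libraries in 1 model (adjusted p = 0.000854). Reads removed by the authors' filter appear as 0 here, so no limit is given for a share of 0.

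Stx3 has a pair of neighbouring coding exons of 111 bases each at chr19:11760164-11760274 and chr19:11760390-11760500, minus strand. They are alike at 68 of 111 positions, 61.3%, and capitals mark the positions that differ.
Stx3 lower-coordinate exon: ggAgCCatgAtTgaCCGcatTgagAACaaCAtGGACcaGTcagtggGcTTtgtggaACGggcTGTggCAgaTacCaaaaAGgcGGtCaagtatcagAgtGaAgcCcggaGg
Stx3 higher-coordinate exon: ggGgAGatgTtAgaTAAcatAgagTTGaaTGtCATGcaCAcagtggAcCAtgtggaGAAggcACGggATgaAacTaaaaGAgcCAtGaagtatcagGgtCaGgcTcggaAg
The share of the lower-coordinate exon was 23.6% ± 16.6, 43.3% ± 5.83 and 80.2% ± 5.33 on d12, d15 and d17 in AKR/J (SD, n = 3). It was 33.8% ± 19.7, 41.6% ± 7.46 and 81.4% ± 10.6 in C57BL/6J and 47.3% ± 0.965, 72.6% ± 6.48 and 70.9% ± 1.46 in the Cav1-null strain. The libraries of d17, at 69.2% to 90.9%, all lay above those of d12, at 4.55% to 55.6%. With 9 to 35 reads per library, the exact 95% intervals were 22.7 to 65.1 percentage points wide. This pair was chosen after its values were seen and has no test. The called site of Stx3 was a different one, where the share of the most used junction differed by -20.53 percentage points between d17 and d12 (adjusted p = 0.031, exact permutation test), and at the site of Stxbp2 by -21.75 (adjusted p = 0.0416). From d12 to d17 the share at this Stx3 site went from 95.2% ± 5.9 to 86.4% ± 6.0 in AKR/J, from 84.3% ± 14.8 to 59.4% ± 16.1 in C57BL/6J and from 93.6% ± 8.3 to 65.7% ± 9.3 in Cav1-null mice (SD, n = 3). The share at the Stxbp2 site went from 93.4% ± 7.7 to 49.7% ± 3.4 in AKR/J, from 86.2% ± 11.9 to 67.8% ± 26.3 in C57BL/6J and from 82.0% ± 9.7 to 78.9% ± 7.6 in Cav1-null mice, so that the means of Cav1-null mice differed by less than their SD.

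**Figure D5:**
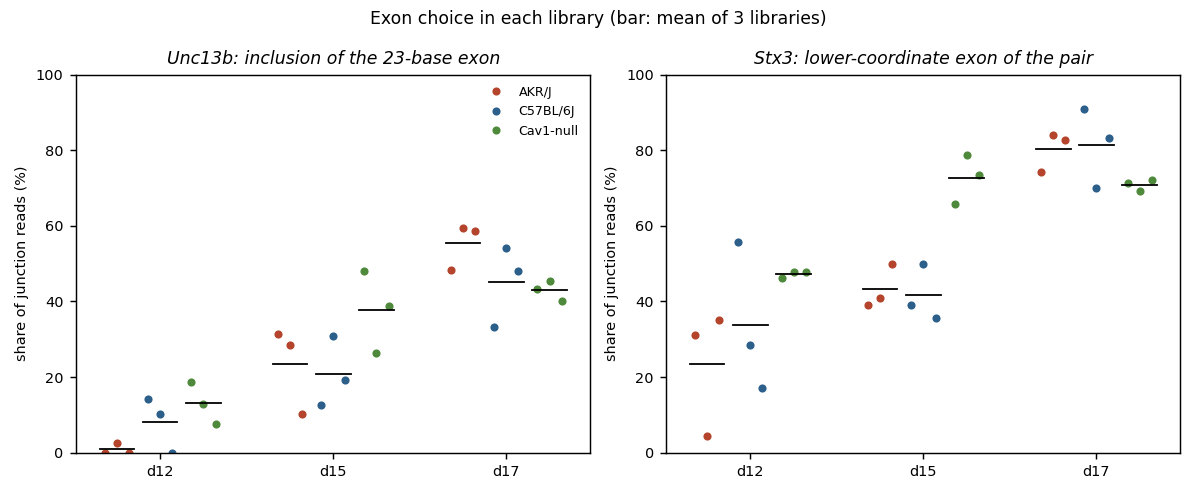
Share of junction reads in percent (y axis) that include the 23-base exon of Unc13b and that use the lower-coordinate exon of the Stx3 pair, by day and strain, with 1 point per library and a bar at the mean. Both shares are higher in every library of d17 than in every library of d12.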

How the data were processed

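RNA of 27 whole fetal brains was sequenced, 3 libraries for each of 9 groups. The authors deposited raw read counts per gene and counts of reads across splice junctions. The submitters' processing notes name FastQC, cutadapt, fastp, STAR, edgeR and bedtools on GRCm39. The authors kept junctions with an overhang of at least 20 bp and at least 10 reads, without multi-mapped reads, and annotated them with Ensembl release 110. The counting tool and its use of strand are not given in the sources used here, so reads of overlapping or antisense genes cannot be told apart.

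From the deposited counts, each comparison was fitted with edgeR 4.0.16 in R 4.3.3 (filterByExpr, TMM, quasi-likelihood test) on the libraries of its groups, with Benjamini-Hochberg adjustment over all genes tested. No pair of libraries held identical values. DESeq2 1.42.0, other scalings, no filter, all libraries in 1 model, a replicate block and leaving out each library were alternatives. Junction shares were tested in Python 3.11.15 with numpy 2.4.6, pandas 2.3.3 and scipy 1.17.1. The tests were also run on simulated data. The simulated junction sites held more reads per library than the least covered of the called member sites, so that check does not cover sites with so few reads.

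The members and lists were chosen with earlier results of these data known. Named by rule were 15 genes of the release machinery, the 3 called members with the largest rise and the 3 with the largest fall in each phase, the 2 of each in each strain comparison, called interactions, and called junction sites that differed by at least 10 percentage points. Other members named were chosen after their values were seen. Values of 2 members are not reported here, and both remain in the counts and medians.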

Additional observations from a re-analysis of the deposited data

How the results depend on the processing

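Counts of called members that moved by over 1.5 times were as follows. In the late phase of AKR/J, 25 became 11 with all 27 libraries in 1 model and 16 to 34 with 1 library left out. In the early phase of C57BL/6J, 15 became 30 with DESeq2, 25 without the filter, 31 with all libraries, 0 with the replicate block and 0 to 31 with 1 library left out, and in the late phase 7 became 14 with library sizes alone, 13 with DESeq2 and 0 to 18. In Cav1-null mice, all libraries in 1 model gave 16 in place of 31 early and 3 in place of 33 late. For AKR/J against C57BL/6J, 25 on d12 became 44 with all libraries and 0 to 31 with 1 left out, and 33 on d15 became 20 to 32. On d17, 0 became 5 with DESeq2, 5 without the filter, 2 with all libraries, 2 with the replicate block and 0 to 24. For Cav1-null mice, 0 on d12 became 4 with DESeq2, 1 without the filter, 1 with all libraries and 0 to 8, 42 on d15 became 27 with all libraries, and 0 on d17 became 0 to 14. The early interaction of AKR/J called 3 with library sizes alone, 5 with DESeq2, 4 without the filter, 8 with all libraries and 0 to 13, and its late one 0 to 4. That of Cav1-null mice called 0 to 4 early, and late 2 with DESeq2, 2 without the filter and 0 to 23. Of the junction sites, 4 were called with 10 reads in place of 20. The cause of these shifts was not tested.

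Values that turned direction, with the range over left-out libraries, were Sv2a late in AKR/J (-0.10 to 0.32), Vamp1 early in C57BL/6J (-0.02 to 0.16, and -0.06 with the GC and length trend removed), and late in C57BL/6J Vamp2 (-0.30 to 0.29, -0.01 with all libraries and -0.02 with the replicate block), Syt1 (-0.14 to 0.50), Syn1 (-1.22 to 0.14) and Cplx2 (-0.33 to 0.01). The lowest or highest of the late C57BL/6J values came without d17 replicate 1 or 2. Cplx2 early in Cav1-null mice, at -0.01, was 0.02 with library sizes alone, 0.01 with the replicate block, 0.01 with the trend removed, and -0.16 to 0.12 with 1 library left out. With the trend removed, Unc13a on d15 was 0.15 in AKR/J and 0.33 in Cav1-null mice, and Syt4 in Cav1-null mice was -0.53. Removing this trend was chosen after seeing the data. Over the 143 named values, leaving out a library kept direction and call in 667 cases, lost the call in 153, gained it in 28 and turned 10, and the other settings gave 880, 72, 40 and 9.

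Replicate numbers were not shown to pair libraries. The correlations of same-numbered libraries ran from -0.198 to 0.165, and no comparison had all 3 above 0.1. With 3 libraries a group, differences smaller than the spread of the C57BL/6J libraries of d12 and d17 could not be seen, and the junction reads of most members were too few for a test.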
